A study of Rattus norvegicus with 16 samples.

Results

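Hippocampal gene expression of injured rats treated with PMI-006 was compared with that of injured rats treated with 17β-estradiol (E2). The arrays were chosen by their titles, TBI+PMI for 3 and TBI+E33 for 2 of the 16 arrays of the series, and each array carries the RNA of 1 rat. All 5 rats were adult male Sprague-Dawley rats that received a severe fluid percussion traumatic brain injury (TBI), in which a pulse of fluid pressed on the exposed dura deforms the brain, and the whole hippocampus was taken 24 h later. PMI-006 was given at 250 mg/kg by oral gavage. E2 was given at 33 ug/kg, by injection under the skin according to the labels and into the peritoneum according to the methods. Dose, route and compound thus differed together, and the times of dosing were not given in the sources used here. The methods give 3 rats per group, and 2 TBI+E2 arrays were analysed here. The 3 TBI+JM6 arrays, from injured rats given another drug by gavage, were used to see what the slide does, and the Naïve (untreated, uninjured), Sham (prepared but not injured) and TBI (injured, no drug) arrays entered the estimate of the spread.

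E2 acts through 2 nuclear receptors encoded by Esr1 and Esr2, which bind DNA and recruit coactivators, and through the membrane receptor encoded by Gper1. In the hippocampus it is known for its effects on dendritic spines, on synaptic plasticity and on the survival of neurons after injury. PMI-006 is known here by its code name only, and the study describes it as an experimental neuroprotective compound. The question the comparison addresses is in which genes injured rats given an established and an experimental neuroprotective compound differed.

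The scanner intensity of each probe was divided by the 75th percentile of the probes well above background on its array, as in the methods, and log2 was taken. This is called the scaled log2 signal. A difference is the TBI+PMI-006 mean minus the TBI+E2 mean, so a positive value is higher in TBI+PMI-006. The methods' filter, which asks for signal well above background in all replicates of 1 group or more, left 22818 probes to test, and a probe was called at a limma Benjamini-Hochberg adjusted p under 0.05. On the TBI+PMI-006 arrays 22790, 22819 and 20256 probes were well above background, and on the TBI+E2 arrays 22886 and 24088. The median standard error of a difference was 0.29, for which a difference of 0.62 on the log2 scale reaches an unadjusted p of 0.05. In tissue RNA, fewer cells of a type and less RNA per cell cannot be told apart.

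The 8 drug arrays were scanned in 1 session on 2 slides. On the third slide of the series lay TBI+JM6 replicate 1 with all TBI+PMI-006 arrays, and on the fourth TBI+JM6 replicates 2 and 3 with both TBI+E2 arrays. No slide held both TBI+PMI-006 and TBI+E2, so no within-slide value exists, and only the TBI+JM6 arrays link the slides. Between the TBI+JM6 arrays of the third slide and those of the fourth, the probes differed in the same direction as between TBI+PMI-006 and TBI+E2 for 70.5% of 22614 probes, and for 83.1% of the 3403 at an unadjusted p under 0.05. Under quantile normalization, in which all arrays take on 1 common distribution, these shares were 55.5% and 69.9%. With the methods' scaling both sets of differences leaned below 0. Between TBI+PMI-006 and TBI+E2 18538 of 22818 probes were below 0, and the median between the TBI+JM6 arrays of the 2 slides was -0.24. A common lean alone makes directions agree, so the shares do not measure agreement probe by probe. The array of TBI+PMI-006 replicate 1 stood apart. Its median correlation with the other drug arrays across probes was 0.969, the lowest of the 8, and it carried choroid plexus transcripts, described below.

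Few single genes separated the treatments beyond the spread between rats. limma called 25 probes of 22818 (0.110%), of which 1 was higher in TBI+PMI-006 (0.00438%) and 24 were higher in TBI+E2 (0.105%). The one higher in TBI+PMI-006 is annotated RGD1564247 and was 10.1-fold higher. Under quantile normalization 0 were called, with 2385 at an unadjusted p under 0.05 compared with 3417 with the methods' scaling. With the slide as a block in a fit of the 8 drug arrays, 3 were called, all higher in TBI+E2, and 0 of them were among the 25.

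The probe of RGD1564247 lies on chromosome 2 of rn4, and the array's annotation describes its gene as similar to a SUMO protease. SUMO proteases remove the small protein SUMO from other proteins. A second probe, LOC686268, less than 1 kb away on the same strand and annotated as similar to SUMO/sentrin specific protease 5, was high and low on the same arrays and was chosen after its values were seen. The named gene of this kind, Senp5, has its probe on chromosome 11. The file lists an accession for the RGD1564247 probe that it also lists for the Senp5 probe, so which transcript the probe reads is uncertain. The probes of RGD1564247 and LOC686268 also have 1 listed accession in common, so they may not read separate transcripts. The probe sequences are shown because the only call higher in TBI+PMI-006 rests on them; they are printed 5′ to 3′ in lower case, the first 30 bases for RGD1564247 and all 60 for LOC686268.
RGD1564247, chr2:97815979-97816038, plus strand: cctcccatatttaatatttattatccaaac
LOC686268, chr2:97815312-97815371, plus strand: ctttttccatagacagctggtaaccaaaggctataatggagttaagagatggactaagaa

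The scaled log2 signal of RGD1564247 was -0.94, -0.95 and -1.35 in TBI+PMI-006 and -4.61 and -4.22 in TBI+E2 rats, and the groups did not overlap. The difference was 3.33 (standard error 0.44, limma adjusted p = 0.0150). The TBI+JM6 rats were at -2.03 on the third slide and at -4.03 and -3.88 on the fourth, so that all 4 arrays of the third slide were above all 4 arrays of the fourth. With the slide as a block the difference was 1.41, and under quantile normalization 4.36 (adjusted p = 0.136). In the rats without a drug the signal was -1.82 to -1.34 in the Naïve and TBI rats and -5.93 and -5.75 in the Sham rats. On the first slide, which held Naïve replicates 1 and 2 and both Sham arrays, high and low signals occurred side by side. A high and a low level were thus found both with and without drug and within a slide.

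LOC686268 was at -0.99, -0.79 and -1.04 in TBI+PMI-006 and at -4.08 and -3.51 in TBI+E2 rats, and was not called (difference 2.85, standard error 0.55, limma adjusted p = 0.0766). Its TBI+JM6 and Sham signals were split as those of RGD1564247. The longest run of bases that the probes of RGD1564247 and LOC686268 share is 8 bases, and either shares a run of 6 with the Senp5 probe. Senp5 itself differed by 0.07 (standard error 0.16) and lay between -0.15 and 0.17 on all 8 drug arrays.

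**Figure D1:**
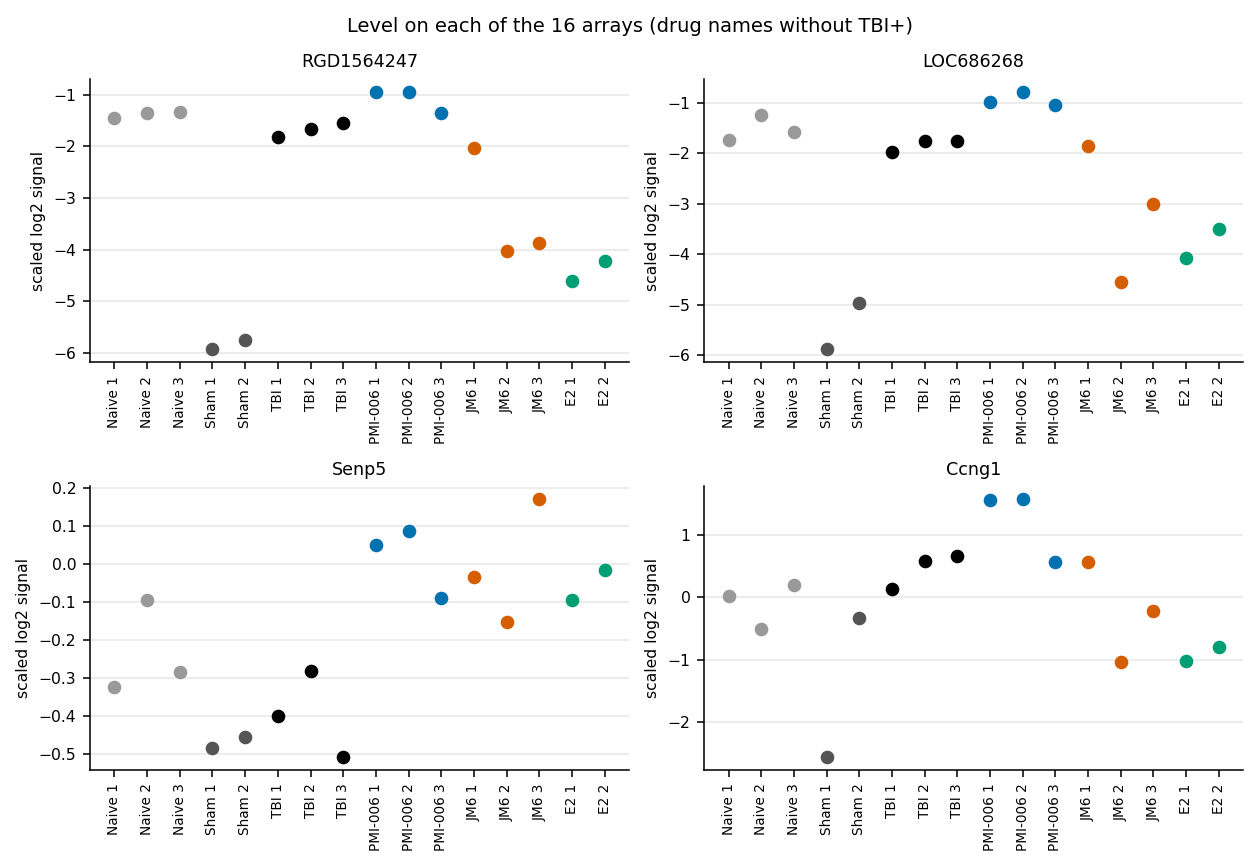
Scaled log2 signal (y axis) of RGD1564247, LOC686268, Senp5 and Ccng1 on each of the 16 arrays (x axis, 1 point per rat, coloured by group, with its own y scale in each panel). RGD1564247 and LOC686268 are low in the 2 Sham, the 2 TBI+E2 and the fourth-slide TBI+JM6 rats and high in the others, while Senp5 stays within 0.7 on the log2 scale over all 16.

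Of the 24 probes called higher in TBI+E2, 23 were well above background on both TBI+E2 arrays and 2 on all 5 arrays. On 0 of the 3 TBI+PMI-006 arrays were 18 of them well above background, so most were too dim to measure there. The filter keeps a probe that is well above background in 1 group alone, so it admits probes with this pattern. The pattern is therefore no support for the calls. When signal well above background was required on each of the 16 arrays, 0 probes were called higher in TBI+E2 by limma. This filter leaves untested each of the 24 that was dim on any of the 5 compared arrays, so the 0 says nothing about those. A bound on the fold was formed by setting the dim arrays to the lowest signal well above background. It takes no account of the spread between rats. The bound was over 1-fold for 17 of the 24 and ran from 1.17- to 3.56-fold among these. The 24 include Myod1, a transcription factor of skeletal muscle, Sele, the adhesion molecule that activated endothelium presents to leukocytes, and Cdh7, a cadherin. Also among the 24 are Tfec, a transcription factor of macrophages, and Ptprt, a receptor tyrosine phosphatase.

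Cdh7 was at -6.19, -5.74 and -5.80 in TBI+PMI-006 and at -4.24 and -3.79 in TBI+E2 rats, which put TBI+E2 at least 3.56-fold above TBI+PMI-006 (limma adjusted p = 0.0486). Sele was at -7.93, -7.78 and -7.17 compared with -5.01 and -4.58, at least 2.21-fold higher in TBI+E2. Myod1 was at -8.38, -8.30 and -7.88 compared with -4.64 and -5.66, at least 1.73-fold higher. In these genes both TBI+E2 rats were above all TBI+PMI-006 rats, and the TBI+JM6 rats were low for Myod1 (-8.50 to -8.10) and intermediate for Sele (-6.73 to -5.51). Zim1, Tfec, LOC681453 and a transcript without a gene name were at least 3.52-, 3.40-, 3.25- and 3.40-fold higher in TBI+E2. The called probe of Mcm4, a subunit of the replication helicase, was well above background on 0 of the 3 TBI+PMI-006 arrays and on 1 of the 2 TBI+E2 arrays, and the brighter probe of Mcm4 differed by -0.14 (standard error 0.21), so the 2 probes of this gene disagree.

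Klhl26, a member of the Kelch-like family, was the only gene with a symbol that was called higher in TBI+E2 and well above background on all 5 arrays. The probe is at chromosome 16, bases 19483575 to 19483634 of rn4. Its signal was -4.59, -4.41 and -4.84 in TBI+PMI-006 and -3.34 and -2.90 in TBI+E2 rats, without overlap, and the TBI+JM6 rats lay between them at -3.94 to -3.81. It was 2.81-fold higher in TBI+E2 (difference -1.49, standard error 0.23, limma adjusted p = 0.0391). It was -1.55 with the slide as a block and -1.36 under quantile normalization (adjusted p = 0.266).

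Beside RGD1564247, Klhl26 and a probe without a gene name, no probe well above background on all 5 arrays was called. The genes that follow were chosen among such probes for no overlap between the groups, and are given in order of their unadjusted p. Higher in TBI+E2 without overlap were Cntfr, the receptor of ciliary neurotrophic factor (difference -1.22, standard error 0.22, limma adjusted p = 0.0628), Dync1li1, a light intermediate chain of the dynein motor (-1.57), Cadm4, an adhesion molecule of glia (-1.16), Iba57, which acts in the assembly of mitochondrial iron-sulfur clusters (-0.93), Mrpl43, of the mitochondrial ribosome (-1.37), and Slc6a7, the proline transporter of glutamatergic terminals (-1.06). Mrpl43 was at -1.16, -1.30 and -0.95 in TBI+PMI-006, at -0.03 and 0.50 in TBI+E2 and at 0.06 to 0.76 in TBI+JM6 rats, so only the TBI+PMI-006 rats were low and the TBI+JM6 rat on their slide was not. Treml2 was at -3.10 to -2.37 in TBI+PMI-006 and at -1.56 and -1.24 in TBI+E2. The TBI+JM6 rats, at -2.29 to -1.47, spanned most of the distance between these groups.

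Higher in TBI+PMI-006 without overlap, and not called, were Nqo2, a quinone reductase (difference 1.61, standard error 0.38, limma adjusted p = 0.124), Rerg, a small GTPase named for its regulation by estrogen (1.74, standard error 0.46), Ccng1, a cyclin induced by p53 (2.14, standard error 0.58), C1qtnf9, a secreted relative of adiponectin (1.16), Nit2, an amidase (0.74), Kcne5, a subunit of potassium channels (0.83), and Tekt1, a protein of cilia (1.07). Rerg was at 0.51, 0.30 and -0.39 in TBI+PMI-006, at -1.79 and -1.42 in TBI+E2 and at -1.18 to -0.31 in TBI+JM6 rats. Both TBI+E2 rats were the lowest of the 8. The difference of Rerg was 1.48 with the slide as a block and that of Nqo2 1.64, whereas that of Ccng1 was 0.95. Ccng1 was at 1.55, 1.57 and 0.56 in TBI+PMI-006 and at -1.03 and -0.80 in TBI+E2 rats, and like RGD1564247 it was higher in TBI+JM6 replicate 1 (0.56) than in the other two (-1.04 and -0.22).

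**Figure D2:**
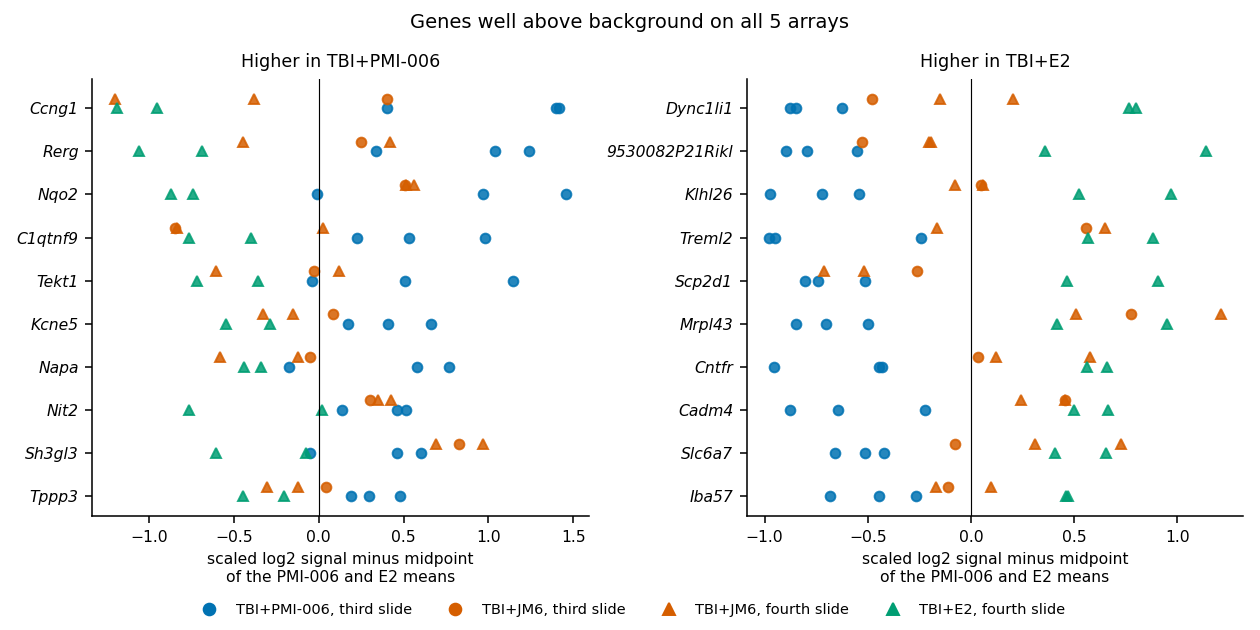
Genes well above background on all 5 compared arrays, with the scaled log2 signal of each drug array minus the midpoint of the TBI+PMI-006 and TBI+E2 means (x axis), 1 row per gene; circles are arrays of the third slide and triangles of the fourth. Only Klhl26 was called, and the other genes were chosen among probes without overlap between the groups, so their separation is no result. The TBI+JM6 arrays of both slides lie close together in Nit2 and apart in Ccng1.

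The genes closest to the action of E2 gave no call. Gper1 was at -3.00, -2.68 and -3.18 in TBI+PMI-006 and at -2.80 and -2.34 in TBI+E2 rats. Its difference of -0.38 had a 95% interval from -0.96 to 0.20 (limma adjusted p = 0.544), and the groups overlapped. Esr2 was at -4.53, -5.46 and -5.87 compared with -4.79 and -4.10, a difference of -0.84 with an interval from -2.12 to 0.43 (limma adjusted p = 0.545), and it was well above background on 2 of the 3 TBI+PMI-006 arrays. These intervals leave room for differences over 1.5-fold in Gper1 and over 4-fold in Esr2, so that they do not show equal levels. The Esr1 probe was well above background on 0 of the 8 drug arrays and that of Pgr, the progesterone receptor, on 4. Neither was tested, and no probe was named Greb1.

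Of 41 estrogen receptor and estrogen-regulated genes, 28 were tested and none was called. The median difference was -0.24, beside -0.22 over all 13838 genes tested with 1 probe a gene, and 5 were above 0. With the methods' scaling, 12.7% of all genes were lower and 0.332% higher in TBI+PMI-006 at an unadjusted p under 0.05, and 4 of the 28 were lower at that level. Under quantile normalization, where the shares over all genes were 4.53% and 4.65%, 2 of the 28 were lower and the median was -0.07. Oxt, which encodes oxytocin, was at -4.38, -4.22 and -4.31 in TBI+PMI-006 and at -3.35 and -3.23 in TBI+E2 rats (difference -1.01, standard error 0.28, limma adjusted p = 0.149). The TBI+JM6 rats reached up to -2.75 for Oxt, above both TBI+E2 rats, and its difference with the slide as a block was -0.34. Fos had a difference of 0.35 with an interval from -2.35 to 3.04, and Igf1 one of -0.19 with an interval from -0.88 to 0.51.

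The criteria of the methods, a t-test at an unadjusted p under 0.05 with a change over 1.2-fold, passed 3404 of 22740 probes. Of all probes, 62 passed as higher in TBI+PMI-006 (0.273%) and 3342 as higher in TBI+E2 (14.7%), which is 98.2% of those that passed. After Benjamini-Hochberg adjustment 1 was left. The direction of the many depended on the scaling. Under quantile normalization 2223 passed, 928 higher in TBI+PMI-006 and 1295 in TBI+E2 (58.3%), and with the 75th percentile over all probes 2418 passed, with 76.8% higher in TBI+E2. The median difference of all tested probes was -0.26 with the methods' scaling, -0.07 with the 75th percentile over all probes, -0.03 with the slide as a block and -0.00 under quantile normalization. Single values above are therefore to be read against -0.26.

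The excess of signal in TBI+E2 was larger in dim probes. With the probes ranked by mean signal into 4 groups of equal size, from the dimmest to the brightest, the median difference was -0.60, -0.31, -0.19 and -0.15. Between TBI+JM6 replicate 1 on the third slide and replicates 2 and 3 on the fourth, it was -0.41, -0.25, -0.19 and -0.21, so arrays of 1 drug on both slides differed in a similar way. Whether the slide gave the difference between TBI+PMI-006 and TBI+E2 was not tested.

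**Figure D3:**
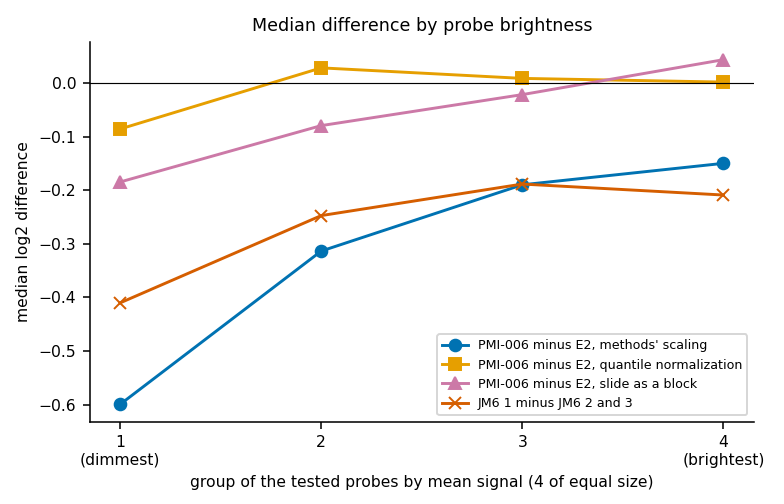
Median log2 difference (y axis) in 4 groups of the tested probes by mean signal (x axis, 5704 or 5705 probes each), for TBI+PMI-006 minus TBI+E2 with 3 settings and for TBI+JM6 replicate 1 minus replicates 2 and 3. With the methods' scaling the dimmest group is at -0.60 and the brightest at -0.15, and under quantile normalization all groups lie within 0.09 of 0.

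Lists of genes for 62 pathways and cell types were described by the brightest probe of each gene. Over all 62 lists no member was called in either direction. The lists are given below by their counts and medians, beside a median of -0.22 over all genes, or 0.02 under quantile normalization. Of all genes, 2872 of 13838 were above 0, and under quantile normalization 7279.

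The choroid plexus, which secretes the cerebrospinal fluid and adjoins the hippocampus in the ventricle, gave the list with the highest median, and this rested on 1 rat. All 13 genes tested were above 0, and the median was 1.32, or 1.67 under quantile normalization. Their summed scaled signal was 182, 11.3 and 3.11 in the TBI+PMI-006 rats, 3.40 and 4.01 in the TBI+E2 rats and 2.55 to 5.19 in the TBI+JM6 rats. Ttr, which encodes the thyroid hormone carrier transthyretin of the choroid plexus, was at 7.19, 2.88 and -2.55 in TBI+PMI-006 and at -1.71 and 0.21 in TBI+E2 rats. Folr1, a folate receptor of this epithelium, was at 1.41 in TBI+PMI-006 replicate 1 and at -4.15 to -3.04 on the other 7 arrays. Without TBI+PMI-006 replicate 1 the median of the list was -0.29 and 6 of 13 genes were above 0. The meningeal genes followed the same array, with a sum of 76.1 in replicate 1 and of 12.5 to 19.3 on the other 7, and so did the red blood cell genes, with 134 compared with 57.1 to 90.8.

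The ependymal genes, of the ciliated cells that line the ventricles, had the second highest median, and none was called. All 7 tested were above 0, with a median of 0.86, of 1.25 under quantile normalization, of 1.2 with the slide as a block and of 0.59 without TBI+PMI-006 replicate 1, where 7 of 7 were above 0. At an unadjusted p under 0.05, 1 of 7 was higher, beside 0.332% of all genes, and 2 were under quantile normalization, beside 4.65%. Without TBI+PMI-006 replicate 1, 0 of 7 were higher at that level, and the lowest unadjusted limma p was 0.128. Rsph1, a protein of the radial spokes of motile cilia, was at -1.04, -1.77 and -1.95 in TBI+PMI-006 and at -2.75 and -2.15 in TBI+E2 rats, without overlap (difference 0.86, standard error 0.36, limma adjusted p = 0.285). Dynlrb2, a dynein light chain of cilia, was at 0.05, -0.46 and -0.58 compared with -1.86 and -1.83, and at -1.51 to -1.10 in TBI+JM6 rats. The TBI+PMI-006 rats were thus the highest of the 8 for both genes, with TBI+JM6 replicate 2 (-1.92) above TBI+PMI-006 replicate 3 for Rsph1 as the exception. Tmem212 differed by 1.47 (standard error 1.12), Ak7 by 0.98 (standard error 0.92), Drc12 by 0.36 and Foxj1, the transcription factor of motile cilia, by 0.28. Rarres2 differed by 0.08. The summed scaled signal of the list was 4.33, 4.27 and 2.96 in TBI+PMI-006, 2.47 and 2.97 in TBI+E2 and 3.05 to 3.55 in TBI+JM6 rats, so the sums overlapped in TBI+PMI-006 replicate 3.

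The immediate early genes, which neurons transcribe within minutes of activity, were high in 1 rat of each of 2 groups. Of 21 tested 15 were above 0, and the median was 0.08, or 0.52 under quantile normalization. Egr4 was at 2.41, -1.67 and -1.97 in TBI+PMI-006, at -1.64 and -1.39 in TBI+E2 and at -1.96, -1.71 and 2.85 in TBI+JM6 rats. Nr4a1 was at 2.43, -0.89 and -1.40, at -1.03 and -0.63, and at -1.21, -1.11 and 3.44 in the same order. TBI+PMI-006 replicate 1 and TBI+JM6 replicate 3 were high for these genes and the other 6 rats were not. Without TBI+PMI-006 replicate 1 the median of the list was -0.54, with 2 of 21 genes above 0. With the slide as a block it was 1.80, and TBI+JM6 replicate 3 is 1 of the 3 arrays that link the slides. The acute injury genes had a median of -0.02, with 11 of 22 above 0, and of -0.38 without TBI+PMI-006 replicate 1.

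**Figure D4:**
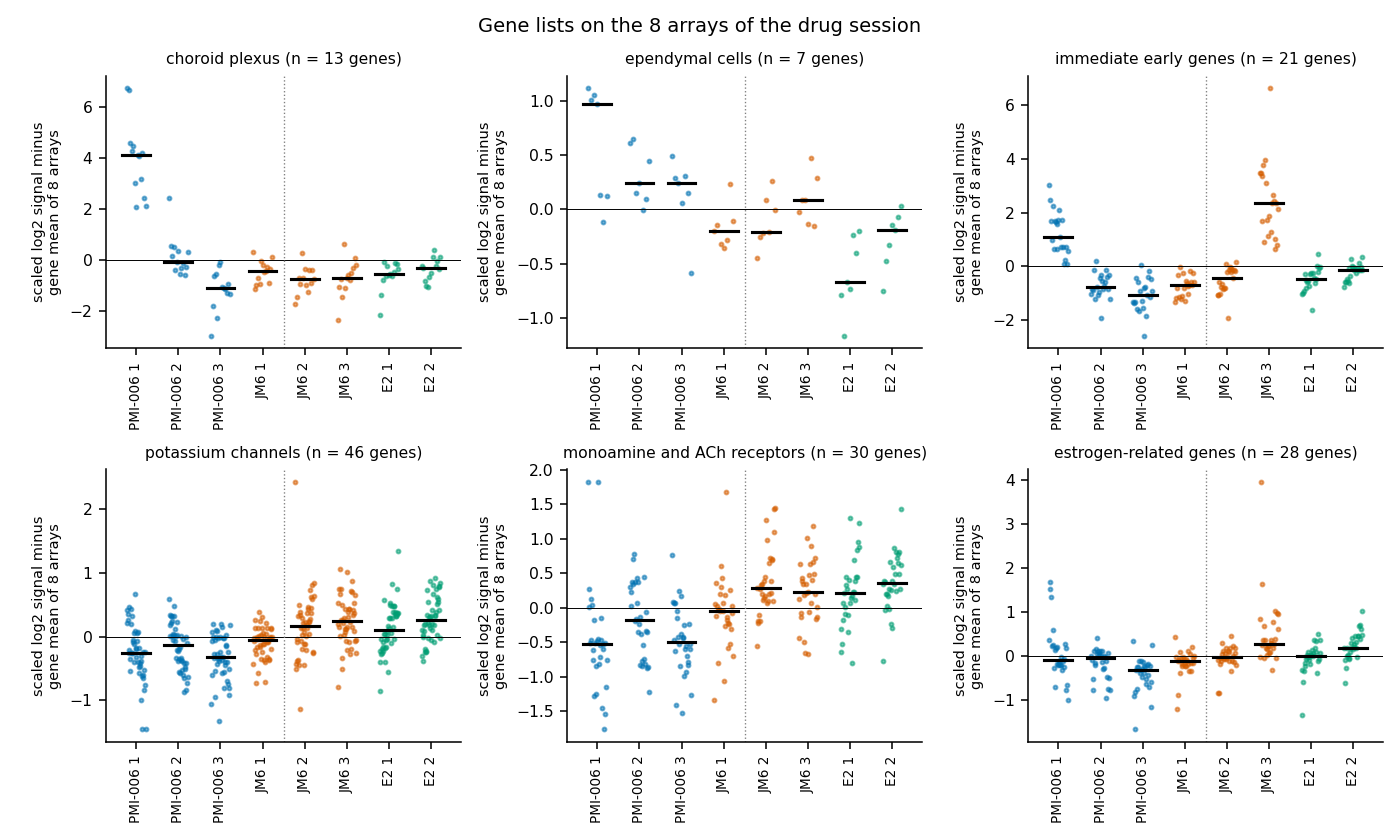
Scaled log2 signal minus the gene's mean over the 8 drug arrays (y axis) for the tested genes of 6 lists (ACh, acetylcholine), by array (x axis); points are genes, bars the median of the list, and the dotted line separates the third slide (left) from the fourth. The choroid plexus genes stand at a median of 4.11 on the array of TBI+PMI-006 replicate 1 only, the immediate early genes at 1.10 there and at 2.35 in TBI+JM6 replicate 3, while the potassium channel genes lie below 0 on the 3 TBI+PMI-006 arrays and above 0 on both TBI+E2 arrays.

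The lists of genes for receptors, channels and transmitters of neurons had different medians. The AMPA and kainate receptor subunits had a median of -0.09, the GABA-A receptor subunits of -0.01, the NMDA receptor subunits of -0.24, the synaptic vesicle release genes of -0.27 and the sodium and calcium channels of -0.27. Of the 30 monoamine and acetylcholine receptor genes, 27 were below 0 with a median of -0.64, of -0.36 under quantile normalization and of -0.23 with the slide as a block. At an unadjusted p under 0.05, 11 of 30 were lower in TBI+PMI-006, beside 12.7% of all genes, and 6 were under quantile normalization, beside 4.53%. The genes were dim, with 23 of 30 among the 2 dimmest of the 4 brightness groups, beside 44.0% of all genes, and in these groups 20.5% and 16.3% of all probes were lower at that level. The part of brightness in this count was not tested. The list median on each array, relative to the mean of the 8, was -0.52, -0.18 and -0.49 in TBI+PMI-006, -0.05 in TBI+JM6 replicate 1, 0.28 and 0.22 in the other two TBI+JM6 rats and 0.22 and 0.36 in TBI+E2 rats. Chrna4, a nicotinic receptor subunit, was at -4.09, -4.55 and -4.60 in TBI+PMI-006 and at -2.10 and -1.90 in TBI+E2 rats (difference -2.41, standard error 0.81, limma adjusted p = 0.197). Htr3a, the serotonin-gated channel of interneurons, was at -3.58, -3.29 and -3.03 compared with -1.55 and -1.81 (difference -1.62, standard error 0.43, limma adjusted p = 0.142). Chrna5, another nicotinic subunit, went the other way, at -2.69, -4.22 and -3.75 compared with -5.16 and -5.29 (difference 1.67, standard error 0.90). TBI+JM6 replicate 1 was the lowest of its group for Chrna4 (-4.04), near the TBI+PMI-006 rats of its slide. The values with the slide as a block were -1.05 for Chrna4 and -1.09 for Htr3a, both nearer to 0. For Chrna5 it was 2.93, farther from 0 than without the block.

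Of the 46 potassium channel genes, 38 were below 0, with a median of -0.44, of -0.12 under quantile normalization and of -0.16 with the slide as a block. At an unadjusted p under 0.05, 18 of 46 were lower in TBI+PMI-006, beside 12.7% of all genes, and 7 were under quantile normalization, beside 4.53%. Of the 46, 25 were among the 2 dimmest groups. Kcnj16, an inward rectifier, differed by -1.29 (standard error 0.58) and Kcnt1, a sodium-activated channel, by -1.23 (standard error 0.42, limma adjusted p = 0.203). Kcnt1 was at -2.49, -2.98 and -3.17 in TBI+PMI-006 and at -1.88 and -1.41 in TBI+E2 rats. Of the 30 amino acid and neurotransmitter transporter genes, 28 were below 0, as were 10966 of all 13838 genes. At an unadjusted p under 0.05, 8 of 30 were lower, beside 12.7% of all genes, and 4 were under quantile normalization, beside 4.53%. Slc6a5, the glycine transporter of glycinergic neurons, and Slc1a6, a glutamate transporter, were well above background on 0 of the 3 TBI+PMI-006 arrays and on both TBI+E2 arrays. Their bounds were 4.85- and 3.97-fold higher in TBI+E2, and they were not called (limma adjusted p = 0.132 and 0.135). Of the compared groups only TBI+E2 met the filter in these genes, so the pattern and its bounds are no support for a difference. Their differences of -3.71 and -2.10 became -1.44 and -0.98 with the slide as a block. TBI+JM6 replicate 1 was at -6.95 for Slc6a5 and replicates 2 and 3 at -3.93 and -5.43. For Slc1a6 these rats were at -5.41, -3.93 and -4.64.

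Among 33 neuropeptide and interneuron genes, 24 were below 0 with a median of -0.37, of -0.13 under quantile normalization and of 0.07 with the slide as a block. Sst, which encodes the somatostatin of hippocampal interneurons, was at -1.48, -1.22 and -1.0 in TBI+PMI-006 and at 0.08 and 0.56 in TBI+E2 rats. The difference was -1.56 (standard error 0.32, limma adjusted p = 0.0938). TBI+JM6 replicate 1 was at -0.82 and the other two TBI+JM6 rats at 0.46 and 0.11, so each rat of the third slide was below each rat of the fourth, and the difference with the slide as a block was -0.45. Sstr1, a somatostatin receptor, was at -2.70, -2.70 and -2.85 compared with -0.75 and -0.95 (difference -1.90, standard error 0.60), and -0.93 with the slide as a block. Trh, the thyrotropin-releasing hormone gene, differed by 1.82 (standard error 1.55) and was high in TBI+PMI-006 replicate 1 (2.54) and TBI+JM6 replicate 3 (2.70), the rats with high immediate early genes.

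The lists for hippocampal neurons had medians near or above that of all genes. The neuronal genes had a median of -0.16 and of 0.00 under quantile normalization, the CA field genes of 0.02 and 0.20, and the dentate gyrus genes of -0.12 and 0.28. All 18 neuronal genes and 15 of 16 CA field genes were tested. The astrocyte genes had a median of -0.36, with 15 of 16 below 0 and 5 lower at an unadjusted p under 0.05 (12.7% of all genes), and of -0.23 under quantile normalization, with 2 lower (4.53%). Fgfr3, a growth factor receptor of astrocytes, was at -0.86, -0.38 and -0.71 in TBI+PMI-006 and at -0.02 and 0.01 in TBI+E2 rats (difference -0.65, standard error 0.18, limma adjusted p = 0.152). Gfap, the astrocyte filament gene, was at 3.38, 3.80 and 4.53 compared with 4.40 and 4.60, and overlapped. The microglial genes had a median of -0.28, with C1qa, a complement subunit made by microglia, at 2.29, 1.58 and 2.19 compared with 2.79 and 2.83 (difference -0.79, standard error 0.23, limma adjusted p = 0.156). The oligodendrocyte precursor genes had a median of -0.47, and Olig2, their transcription factor, was at -0.58, -0.64 and -0.67 compared with -0.04 and -0.08 (difference -0.57, standard error 0.20).

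The leukocyte genes had the lowest median, -0.71, or -0.41 under quantile normalization, with 15 of 17 below 0. These genes were dim, with 14 of 17 among the 2 dimmest of the 4 brightness groups, beside 44.0% of all genes. In the dimmest group, which held 10 of the 17, the median difference of all probes was -0.60. The part of brightness in the list median was not tested. Their summed signal of 7.20 to 14.7 in TBI+PMI-006 overlapped that of 9.57 and 16 in TBI+E2 rats. Of the T cell genes Cd3e was higher in TBI+PMI-006, while Cd8a, Cd3d and Cd4 were lower. Cd8a was at -7.93, -4.29 and -2.91 in TBI+PMI-006 and at -2.29 and -1.42 in TBI+E2 rats, and Cd3e was at -1.56, -1.03 and -2.25 compared with -4.70 and -2.63. Neither was called, and the differences of -3.19 and 2.05 had standard errors of 1.2 and 1.1. Cd3d differed by -0.71 (standard error 0.27) and Cd4 by -0.96 (standard error 0.94), so Cd3d and Cd3e went in opposite directions.

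The list of the kynurenine pathway, which breaks down tryptophan, held 10 tested genes, counting Wars1, which is not an enzyme of this pathway. Of the 10 genes 9 were below 0, with a median of -0.40, or -0.16 under quantile normalization. Ido2, an enzyme of the first step, was at -6.54, -6.08 and -5.49 in TBI+PMI-006 and at -3.70 and -3.94 in TBI+E2 rats. It was well above background on 0 of the TBI+PMI-006 arrays and had a bound of 4.15-fold (limma adjusted p = 0.132). Only TBI+E2 of the compared groups met the filter in Ido2, so the pattern and its bound are no support for a difference. Haao, on the way to quinolinic acid, differed by -1.72 (standard error 0.45, limma adjusted p = 0.138). It was well above background on 1 of the TBI+PMI-006 arrays. Its signal was -6.38, -5.38 and -5.98 in TBI+PMI-006 and -5.05 and -3.33 in TBI+E2 rats, so TBI+E2 replicate 1 was near the TBI+PMI-006 rats. Kyat1, which forms kynurenic acid, was at -1.11, -1.02 and -1.04 compared with -0.67 and -0.45, without overlap (difference -0.50, standard error 0.18). Kmo differed by -1.03, Ido1 by -0.41, Kyat3 by -0.40, Aadat by -0.32, Qprt by -0.23, Wars1 by -0.07 and Got2 by 0.18.

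Further lists lay on either side of the median of all genes. The 77 cytosolic ribosomal protein genes had a median of -0.19, the 65 genes of the mitochondrial respiratory chain of -0.10, the 38 proteasome subunits of -0.07 and the 29 interferon-stimulated genes of -0.24. Under quantile normalization these medians were -0.04, 0.06, 0.09 and 0.05. The 21 genes of the Notch pathway and the 29 of the Wnt pathway both had a median of -0.44, and of -0.12 and -0.06 under quantile normalization. At an unadjusted p under 0.05, 8 and 7 of them were lower, beside 12.7% of all genes, and under quantile normalization 1 and 4, beside 4.53%. Of the Notch genes 12 and of the Wnt genes 20 were among the 2 dimmest brightness groups, beside 44.0% of all genes. The part of brightness in these counts was not tested. The 11 thalamus genes had a median of -0.39, or -0.13 under quantile normalization. The replication and proliferation genes had a median of -0.33, and of 0.05 without TBI+PMI-006 replicate 1.

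**Figure D5:**
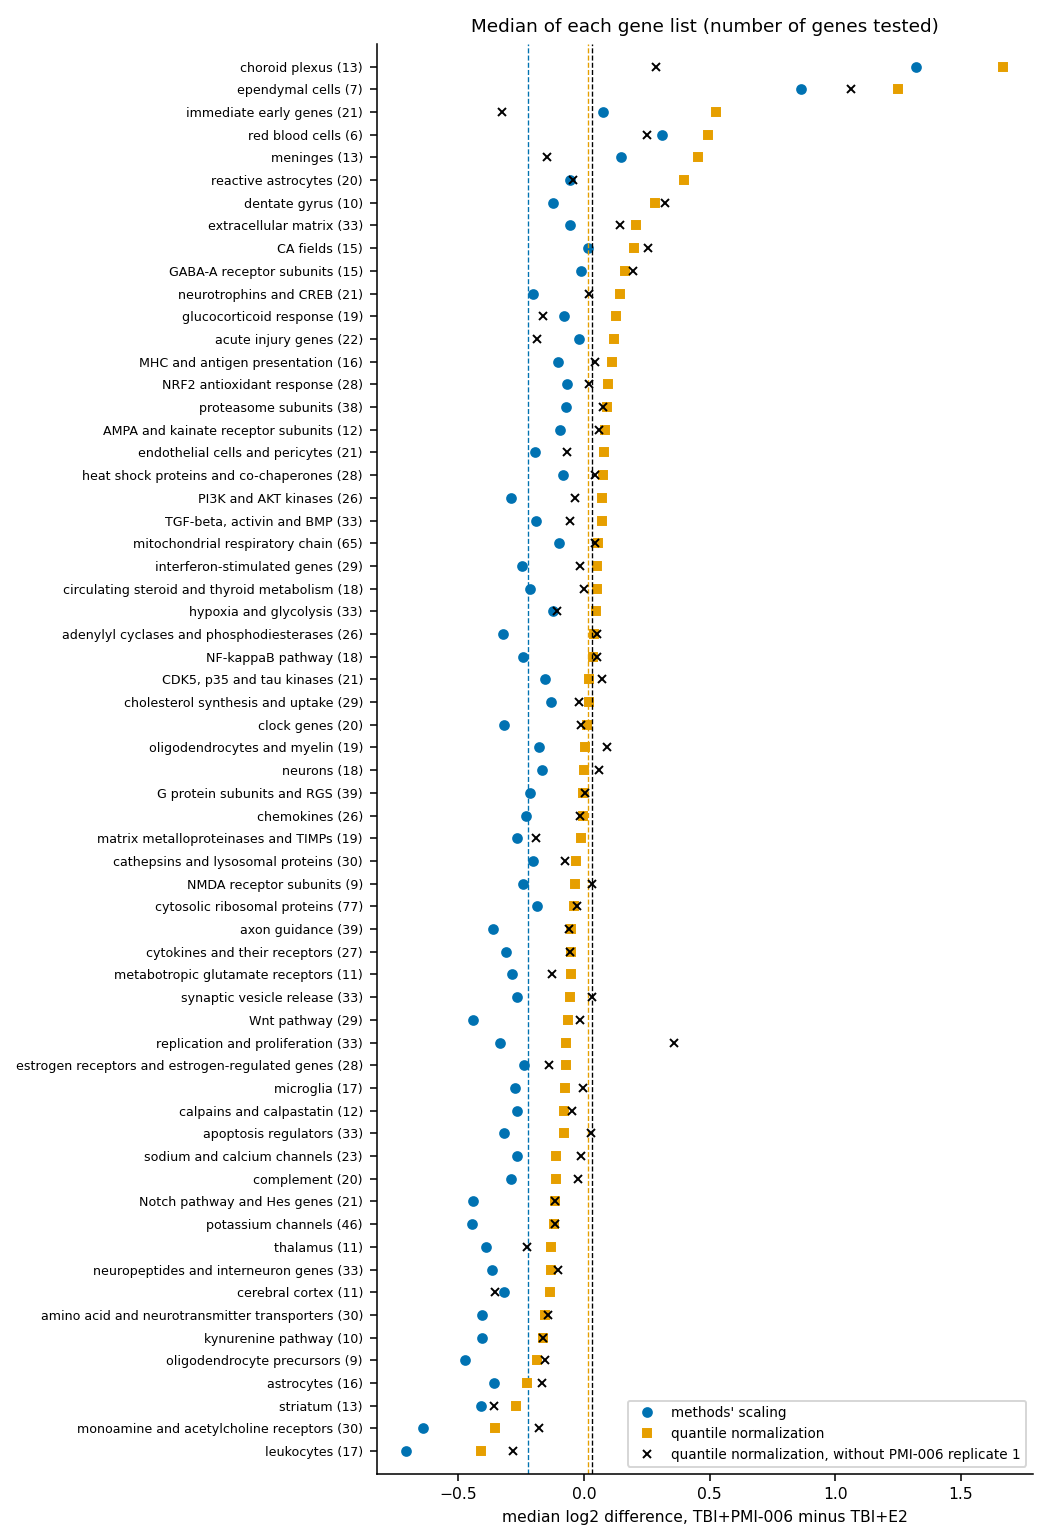
Median log2 difference, TBI+PMI-006 minus TBI+E2 (x axis), of each of the 62 gene lists (y axis, number of genes tested in brackets) with the methods' scaling, under quantile normalization and under quantile normalization without TBI+PMI-006 replicate 1; dashed lines are the medians of all genes in the same 3 settings. Choroid plexus genes fall from 1.67 to 0.29 without that rat, ependymal genes remain at 1.06, and most lists lie near the line of all genes under quantile normalization.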

How the data were processed

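RNA from each hippocampus had been amplified, labelled and hybridized to single-colour Agilent rat arrays, with 16 arrays in 6 groups. Which of the named amplification kits was used for which rat was not given in the sources used here. The authors deposited the scanner's processed intensity of each spot, from Agilent Feature Extraction 9.5.3.1, background subtracted within the array and not normalized between arrays. A matrix deposited by the authors holds a ratio per probe to the 75th percentile of its array, on a linear scale, and was used as an alternative only. Probe positions are those of rn4. Of the 30367 probes, 68.1% took a current symbol from RefSeq, and the others kept the name in the file.

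The 42877 non-control spots were averaged by probe and scaled as described, and log2 was taken. limma was fitted to all 16 arrays by group, with 10 residual degrees of freedom and Benjamini-Hochberg adjustment over 22818 probes. The labels do not say how rats were assigned to slides, and p-values measure the spread between these rats. For a gene with several probes in a list, the brightest over the 16 arrays was used. The arrays compared and the gene lists were chosen with earlier results of these data known. Named genes are the called ones, those with the largest change or, where fewer than 5 in a direction were called with both scalings, the lowest unadjusted p among probes well above background on all 5 arrays and without overlap, up to 10 in each direction, those with the largest bounds, the receptors and responders of E2 (Esr1, Esr2, Gper1, Pgr and Greb1), and the members of a list with the largest differences (all, where 10 or fewer were tested). Some that the rule covers are not printed, and several list members (Oxt, Sst, Htr3a, Fgfr3, C1qa, Olig2, Fos, Igf1, Kcnt1, Gfap and others) were chosen after their values were seen. The model was tested on simulated data. R 4.3.3, limma 3.58.1, data.table (version 1.17.8), Python 3.11.15, pandas 2.3.3 and matplotlib 3.10.9 were used.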

Additional observations from a re-analysis of the deposited data

How the results depend on the processing

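The count of 25 called probes moved with most settings. It was 0 with a normexp background correction (1317 at an unadjusted p under 0.05), 0 under quantile normalization (2385) and 0 with limma on the 8 drug arrays (4088); 9 with the 75th percentile over all probes, 5 with the authors' matrix, 3 on the 5 compared arrays, 3 with the slide as a fixed block, 1 with a filter on all 16 arrays, and 1 each with Welch's t-test and the methods' t-test after adjustment. It was 100 without a filter on dim probes, 494 with the slide as a random block (consensus correlation -0.088) and 1464 with array weights. Leaving out single rats gave 2 to 54, the lowest without TBI+E2 replicate 2, which leaves 1 TBI+E2 array assumed to vary like the other groups, and the highest without TBI+PMI-006 replicate 3. Leaving out TBI+PMI-006 replicate 1 gave 15, and replicate 2 gave 46. Same-numbered rats did not deviate together (correlations of -0.03 and 0.00), which gave no sign that the numbers pair the rats. The deviations of the 2 TBI+E2 arrays mirror each other, so these values cannot exclude a pairing. With the replicate number as a block 35 probes were called, 16 of them among the 25. Chosen after seeing the data, quantile normalization with the slide as a block gave 0 (1020 at an unadjusted p under 0.05), and with each rat left out 0 without TBI+PMI-006 replicate 1 (1636) or replicate 2 (1663), 39 without TBI+PMI-006 replicate 3, and 5 and 1 without TBI+E2 replicates 1 and 2.

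The 3404 probes of the methods' t-test became 2223 under quantile normalization, 2079 with a filter on all 16 arrays, and 2081 and 904 at fold limits of 1.5 and 2. No single gene changed direction while called. Of the settings tried for single genes, 687 kept the side of the threshold, 439 lost it, 39 gained it and 2 moved without a test; of those for list medians 226 stayed within the spread and 22 moved. The number of arrays, 3 and 2, limits the precision, as does dim signal: the median standard error was 0.51 in the dimmest of 4 groups of probes and 0.22 in the brightest.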
